A study of Mus musculus with 6 samples.

Results

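Cytosolic ribosomal protein genes encode the proteins of the 80S ribosome, and they were taken from the count table of Sertoli cell RNA by symbol: protein-coding genes named Rpl, Rps or Rplp with a number, with the Rps6 kinase genes left out. The rule gave 82 of 28262 genes, of which 51 belong to the large and 31 to the small subunit. Sertoli cells, the nurse cells of the seminiferous epithelium, had been isolated from the testes of 20-day-old C57BL/6 mice. They were kept at 34 °C with 5% CO2 without further treatment and used for total RNA. Per the study's methods the culture medium held insulin, EGF and transferrin. The 3 control libraries carry the genotype PA1flox/flox and are called Pa1F/F here, and the 3 knockout libraries carry PA1-/- and are called Amh-pa1-/-. In the latter the floxed gene for PA1, a subunit of histone H3K4 methyltransferase complexes, is removed by a Cre recombinase under the Amh promoter, which acts in Sertoli cells and not in the other cells of the testis. The sources used here do not say how many animals went into a library or whether the controls carried Cre. The genotype was taken from the labels and was not checked in the reads.

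Ribosomal proteins fold around the ribosomal RNAs, and a cell needs them in nearly equal numbers, 1 of each for most proteins of a ribosome. The small subunit reads the mRNA, the large subunit joins the amino acids, and the P stalk on the large subunit recruits the elongation factors. The mRNAs of most of these genes start with a C and a run of pyrimidines, the terminal oligopyrimidine or TOP motif, through which mTORC1 and Larp1 set their translation. Ribosomal protein mRNAs have also been copied back into the genome many times as processed pseudogenes, intronless copies that can stay nearly identical to their parent gene.

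Libraries held between 13203757 and 16231443 counts. Within each group a pair of libraries lay far closer to each other than to the remaining one. Pa1F/F replicates 1 and 3 differed by a biological coefficient of variation of 3.59% and Amh-pa1-/- replicates 1 and 2 by 2.41%, while every pair with Pa1F/F replicate 2 or Amh-pa1-/- replicate 3 differed by 18.4% to 22.1%. Counting error alone did not cover the gap within a close pair, with a chi-square per gene of 2.24 and 1.68, so neither pair was taken for 1 library deposited again. A value above 1 can also come from repeat preparations of 1 RNA, and whether the close pairs came from separate preparations was not tested. The fit used all 6 libraries, and the number of lower members with each close pair summed is given beside its own. Calls of single genes and of lists come from all 6 libraries unless another fit is named. With the close pairs summed, 4.22% of all genes tested were lower, against 17.1% with all 6 libraries. The study's methods speak of biological replicates and, for all experiments, of independent repeats, without saying for these libraries whether they came from separate animals, so p-values measure the spread between these libraries, which may be partly technical. Markers of other cells and of cell division differed between the genotypes too. The summed level of 12 Sertoli cell markers ranged from 16165 to 16453 CPM, the counts of a gene divided by the scaled size of its library in units of 1000000 counts, in Pa1F/F and from 9603 to 12438 CPM in Amh-pa1-/-. For 12 proliferation genes the ranges were 439 to 591 and 940 to 1417 CPM, for 5 peritubular myoid markers 214 to 272 and 825 to 1218 CPM, for 6 Leydig cell markers 794 to 911 and 165 to 288 CPM, for 7 macrophage markers 92.3 to 98.3 and 69.0 to 90.6 CPM, and for 5 endothelial markers 116 to 122 and 63.9 to 101 CPM. Of 11 germ cell markers 10 were in the table, and their sum was 3.27 to 4.14 and 1.39 to 6.88 CPM. In the cell type lists other than germ cells, 1 or 2 abundant genes held most of the sum in Pa1F/F. By single genes, 3 of 11 tested Sertoli cell markers were lower and 1 higher (median log2 fold change -0.12), and 10 of 12 proliferation genes were higher (1.24). Lower were 4 of 6 macrophage markers (-2.36), 3 of 3 Leydig cell markers (-1.99) and 1 of 2 tested germ cell markers (-0.81). Of 4 myoid markers 1 was higher (1.23), and of 4 endothelial markers 2 were lower and 1 higher (0.30). These calls are at an adjusted p under 0.05 in edgeR. Among all genes tested 17.1% were lower and 18.2% higher. The part of these differences in the results that follow was not tested. In RNA from a cell population, fewer cells of a type and less RNA per cell cannot be told apart.

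Many of these genes share most of their coding sequence with pseudogenes, which bears on every level given here. In GENCODE vM39 transcripts, 27 of the 82 genes had every 50-base stretch of their coding sequence present letter for letter in at least 1 pseudogene, the median was 88.1% of the stretches, and 3 genes had none. A total of 624 pseudogenes of the table matched a coding sequence of the family. Shown here are Rpl34 with Rpl34-ps1, Rpl3 with Rpl3-ps1 and Rps13 with Rps13-ps1, 3 pairs of 2 differing bases each in which the gene was lower and the pseudogene higher in Amh-pa1-/- cells. They were picked out after their values were seen. Positions count from 1 at the A of the start codon, the gene's base comes first and the pseudogene's base last.

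Rpl34 (ENSMUSG00000062006, GRCm38 chr3:130726831-130730398, minus strand) encodes a large subunit protein, and Rpl34-ps1 lies at chr6:71124610-71124963 on the plus strand. Over 354 coding bases they differed at T132C and C318G, each at the last position of a codon, with the differing base in capitals in bases 102 to 162 and 288 to 348.
Rpl34, 102 to 162: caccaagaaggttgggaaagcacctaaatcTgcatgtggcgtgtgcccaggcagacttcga
Rpl34-ps1, 102 to 162: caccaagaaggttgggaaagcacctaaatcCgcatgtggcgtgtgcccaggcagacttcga
Rpl34, 288 to 348: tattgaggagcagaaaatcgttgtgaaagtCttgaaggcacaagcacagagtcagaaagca
Rpl34-ps1, 288 to 348: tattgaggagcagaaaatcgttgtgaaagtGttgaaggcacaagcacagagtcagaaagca

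Rpl3 (ENSMUSG00000060036, GRCm38 chr15:80077794-80091868, minus strand) encodes a large subunit protein that reaches towards the peptidyl transferase centre, and Rpl3-ps1 lies at chrX:13202571-13203780 on the plus strand. Over 1209 of 1212 coding bases they differed at C57A and T786C, again at the last position of a codon, shown in capitals.
Rpl3, 27 to 87: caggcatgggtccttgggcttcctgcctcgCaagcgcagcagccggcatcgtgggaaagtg
Rpl3-ps1, 27 to 87: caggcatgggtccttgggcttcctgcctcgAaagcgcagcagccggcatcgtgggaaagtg
Rpl3, 756 to 816: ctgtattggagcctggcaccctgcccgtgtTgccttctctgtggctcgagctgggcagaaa
Rpl3-ps1, 756 to 816: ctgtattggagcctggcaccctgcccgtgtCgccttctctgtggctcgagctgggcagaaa

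Rps13 (ENSMUSG00000090862, GRCm38 chr7:116331505-116334195, minus strand) encodes a small subunit protein, and Rps13-ps1 lies at chr8:87047689-87048226 on the plus strand. Over 456 coding bases they differed at T411C and A429G, last codon positions as well, both in capitals in bases 381 to 441.
Rps13, 381 to 441: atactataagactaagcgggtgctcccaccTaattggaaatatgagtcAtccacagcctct
Rps13-ps1, 381 to 441: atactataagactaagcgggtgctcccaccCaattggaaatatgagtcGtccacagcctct

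Rpl34 had the largest difference of the family. Its level was 59.8, 69.3 and 58.9 CPM in the Pa1F/F libraries, listed by replicate number here and throughout, and 6.57, 6.59 and 6.61 CPM in the Amh-pa1-/- libraries. The groups lay far apart, and the Amh-pa1-/- values were almost equal. The log2 fold change was -3.25 ± 0.10 (SE, edgeR quasi-likelihood test, adjusted p = 2.2e-05). Rpl34-ps1 moved the opposite way, from 34.8, 40.0 and 34.7 CPM to 92.6, 89.3 and 98.4 CPM, a log2 fold change of 1.35 ± 0.08 (edgeR, adjusted p = 0.00013). The sum of the gene and the pseudogene was 99.2 ± 8.80 CPM (SD, n = 3) in Pa1F/F and 100.03 ± 4.60 CPM (SD, n = 3) in Amh-pa1-/-, so it differed by less than the spread between replicates (ratio 1.01, exact two-sided permutation p = 0.8, smallest possible 0.1). Rpl34 held 63.2% of that sum in Pa1F/F and 6.60% in Amh-pa1-/-, and the libraries spanned 0.49 percentage points within Pa1F/F and 0.57 within Amh-pa1-/-.

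Rpl3 was counted at 432, 491 and 439 CPM in Pa1F/F and at 255, 272 and 220 CPM in Amh-pa1-/- (log2 fold change -0.87 ± 0.10, edgeR, adjusted p = 0.0010). Rpl3-ps1 went from 38.6, 39.4 and 36.2 CPM to 152, 157 and 192 CPM, a log2 fold change of 2.13 ± 0.10 (edgeR, adjusted p = 8.1e-05). Again no library of one genotype reached the range of the other. The sum fell from 492 ± 33.2 to 416 ± 11.7 CPM (SD, n = 3 each, ratio 0.845, exact two-sided permutation p = 0.1, the smallest possible), and the share of Rpl3 in it was 92.3% in Pa1F/F and 59.8% in Amh-pa1-/-. In the Amh-pa1-/- libraries it was 62.6%, 63.3% and 53.4%, with replicate 3 below the others, against a span of 0.779 percentage points within Pa1F/F. A second copy, Rpl3-ps2 at GRCm38 chrX:74170653-74171866, also rose, from 1.21 to 3.76 CPM (log2 fold change 1.63 ± 0.31, edgeR, adjusted p = 0.0079).

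Rps13 showed the same arrangement on a smaller scale. It was counted at 109, 124 and 115 CPM in Pa1F/F and at 89.7, 79.0 and 90.6 CPM in Amh-pa1-/- (log2 fold change -0.42 ± 0.08, edgeR, adjusted p = 0.0068), and the groups did not overlap. Rps13-ps1 rose from 7.58, 8.10 and 7.77 CPM to 27.6, 23.6 and 23.0 CPM (log2 fold change 1.66 ± 0.11, edgeR, adjusted p = 0.00019). The sum was 124 ± 7.97 CPM in Pa1F/F and 111 ± 7.67 CPM in Amh-pa1-/- (SD, n = 3 each, exact two-sided permutation p = 0.2), and Rps13 held 93.7% and 77.7% of it, with a span of 0.385 and 3.30 percentage points within the groups. Whether the reads of the 3 pairs came from the genes or from the pseudogenes was not tested, since the counts do not hold the bases of the reads.

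**Figure D1:**
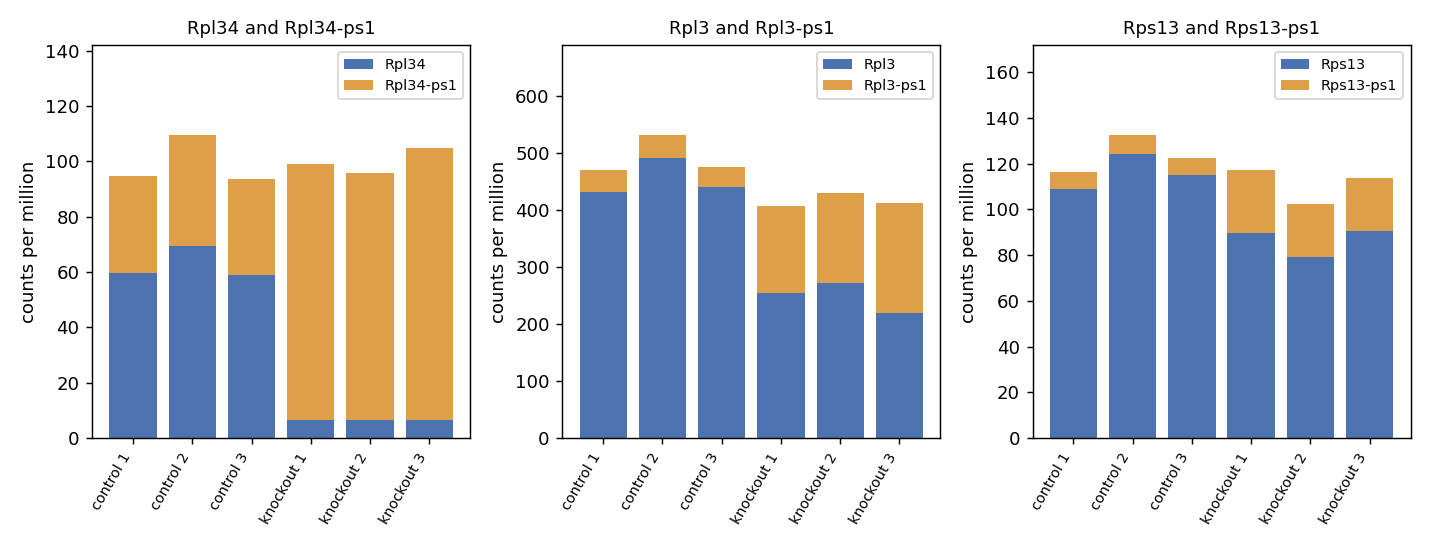
CPM (vertical axis) of 3 ribosomal protein genes and of their near-identical pseudogenes, stacked for each of the 6 libraries. Rpl34 makes up 63.2% of its stack in control libraries and 6.60% in knockout libraries, while the height of the stack is 99.2 and 100.03 CPM on average.

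The question for the family as a whole was whether its transcripts differed between Amh-pa1-/- and Pa1F/F Sertoli cells. Of the 82 genes 78 had enough counts for a test. In Amh-pa1-/- cells 27 of the 78 were lower at an adjusted p under 0.05 (34.6%), and 0 were higher. Among all 14919 genes tested 17.1% were lower and 18.2% higher at that threshold, 35.3% in either direction. At an unadjusted p under 0.05, 36 members were lower (22.5% of all genes) and 0 higher (23.5% of all genes) in the edgeR test, and 0 were higher by DESeq2 or limma-voom at an adjusted p under 0.05. The large subunit had 15 of 47 genes lower and the small subunit 12 of 31. The median log2 fold change was -0.14 over the 78 genes, -0.13 in the large and -0.14 in the small subunit, against 0.0020 over all genes tested. A total of 65 members had a negative and 13 a positive fold change, and in 48 the Amh-pa1-/- libraries all lay below the Pa1F/F libraries, as they did in 26.1% of all genes tested, while in 0 they all lay above (26.3% of all genes). Without Rpl34, Rpl3 and Rps13, 24 of 75 were lower, and the median was -0.13.

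The differences were small for most members. Among the other 24 lower genes the log2 fold change ran from -0.69 to -0.17, that is, from 38.1% to 10.9% lower. With a doubling or halving required in addition (log2 fold change of 1 or more either way), which 6.56% of all genes passed as lower and 5.44% as higher, Rpl34 was the single member called. The number of calls rested on how the close libraries were treated. With Pa1F/F replicates 1 and 3 summed to 1 sample and Amh-pa1-/- replicates 1 and 2 summed to 1 sample, 2 genes (Rpl34 and Rpl3) were lower. Both belong to the pairs above in which a pseudogene rose, and no member outside those pairs was called lower. The median of the family was -0.13, and 4.22% of all genes tested in that fit were lower. Without single libraries the count of lower genes ranged from 14 (without Amh-pa1-/- replicate 2) to 34 (without Amh-pa1-/- replicate 3), and it was 17 without Pa1F/F replicate 2. The share of all genes lower in those fits was 11.7%, 21.2% and 14%, so the calls rose and fell over the whole table too. Pa1F/F replicate 2 and Amh-pa1-/- replicate 3 also deviated from their groups together (r = 0.21 across genes, which are not independent replicates). With these 2 sets of libraries as a term, a fit chosen after seeing the data, 37 members were lower and 0 higher, among them all 27, against 21.8% of all genes lower. The median log2 ratio of CPM over the 78 members was -0.12 within the close pairs and -0.21 between Amh-pa1-/- replicate 3 and Pa1F/F replicate 2, which has no replicate.

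**Figure D2:**
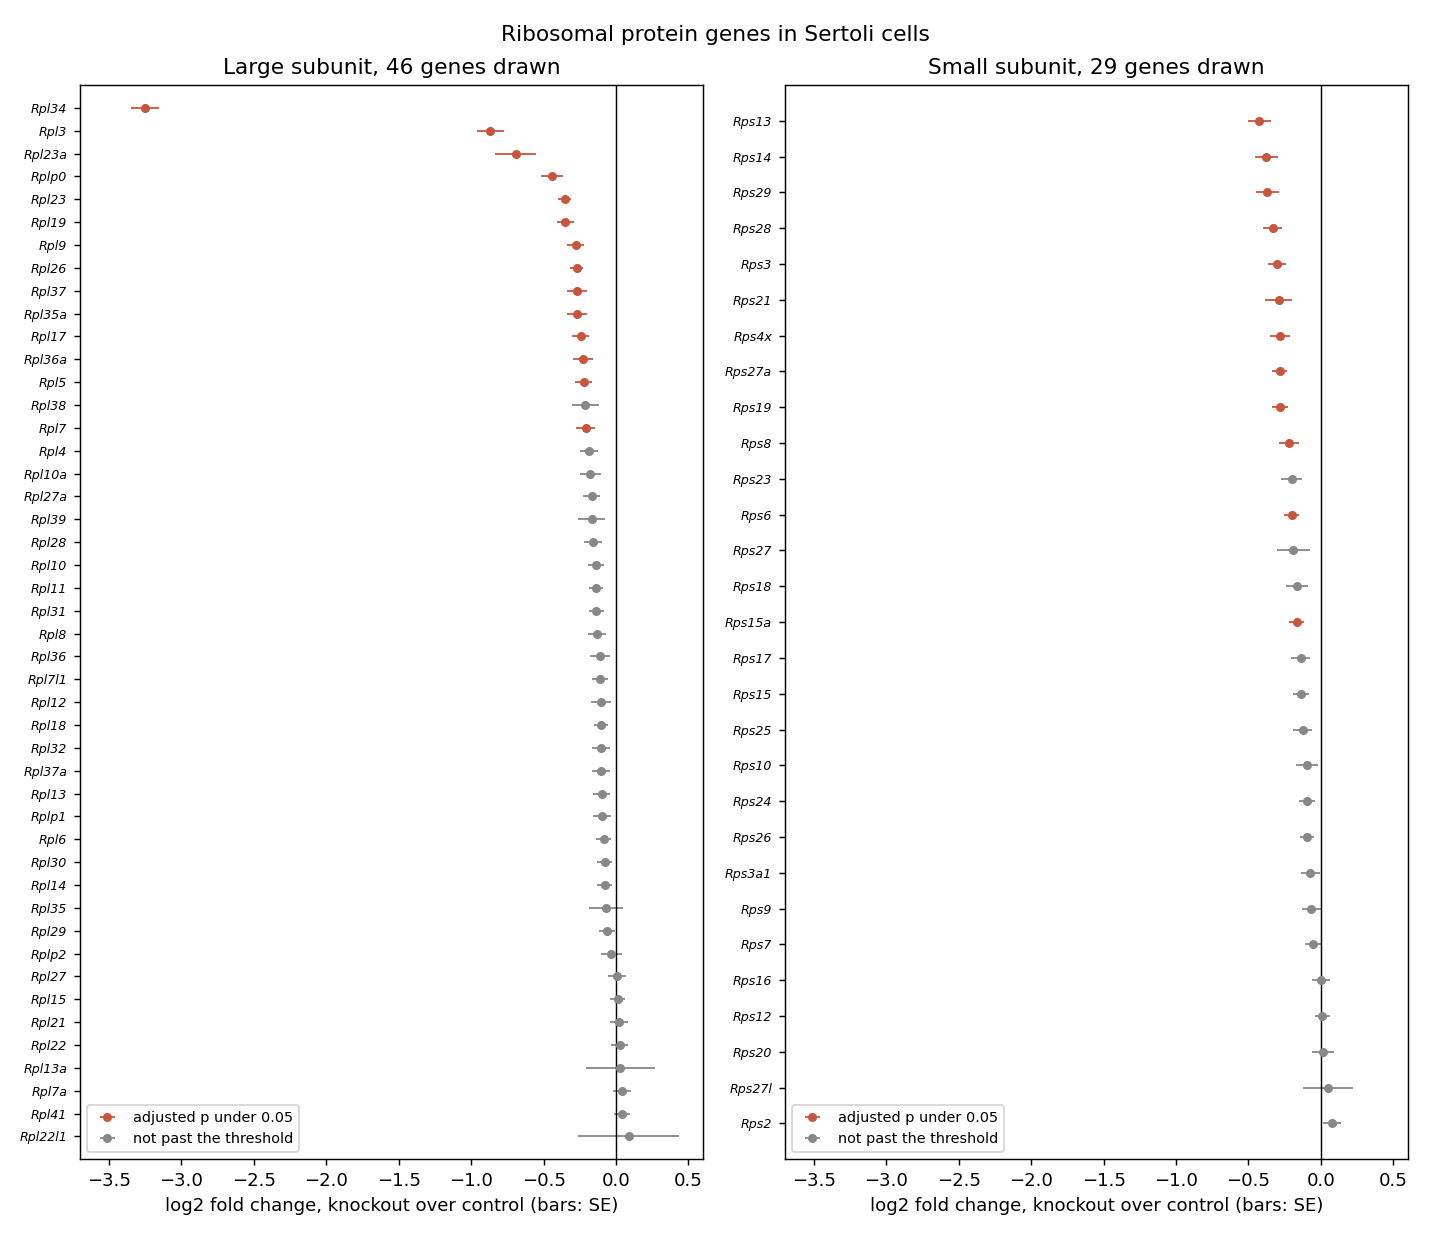
Log2 fold change (horizontal axis, knockout over control, bars are SE) of 46 large subunit and 29 small subunit genes tested, in order of size. Rpl34 stands apart at -3.25, all but Rpl34, Rpl3 and Rpl23a lie between -0.44 and 0.09, and the genes past the threshold all lie to the left of 0.

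The share of a library's counts that fell on the 82 genes was 1.56%, 1.68% and 1.55% in the Pa1F/F libraries against 1.41%, 1.38% and 1.47% in the Amh-pa1-/- libraries. All Amh-pa1-/- libraries lay below all Pa1F/F libraries, and the means were 1.60 ± 0.068% and 1.42 ± 0.047% (SD, n = 3), a ratio of 0.889. The ratio was 0.874 for the large subunit and 0.913 for the small subunit. With the counts of the matched pseudogenes added, the share was 1.73 ± 0.073% and 1.55 ± 0.053% (SD, n = 3), a ratio of 0.900. The pseudogenes themselves held 0.128% and 0.133%. Mitochondrial ribosomal protein genes, which build the ribosome of the organelle and are read here as a neighbouring family, held 0.211 ± 0.0042% and 0.217 ± 0.0021% (SD, n = 3), a ratio of 1.03.

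**Figure D3:**
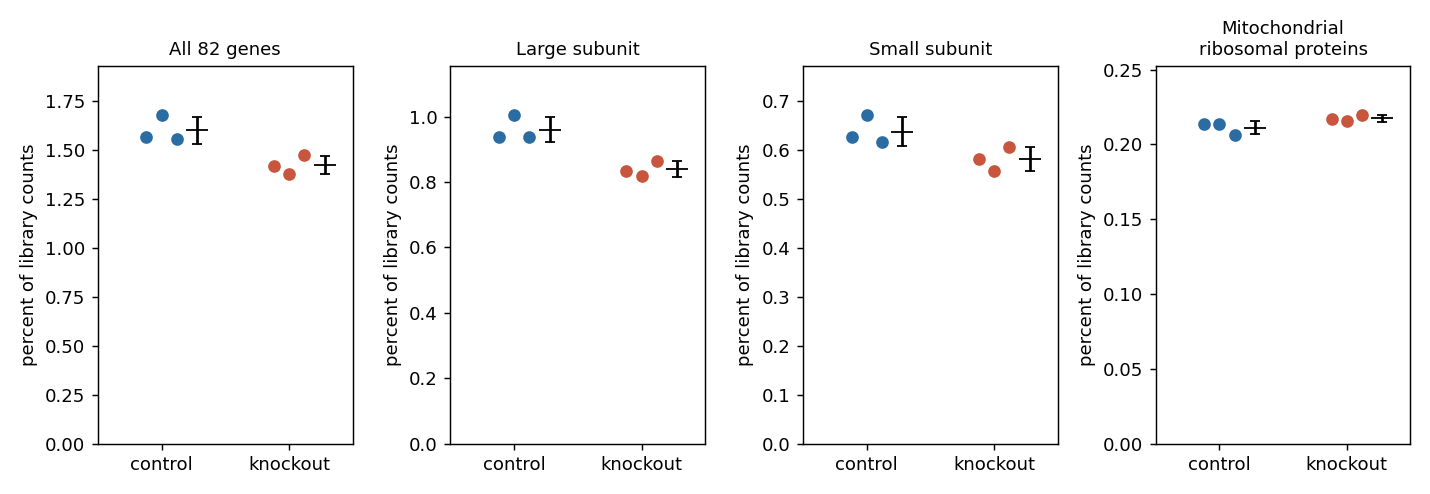
Percent of a library's counts (vertical axis, from 0) on all 82 genes, on each subunit and on the mitochondrial ribosomal protein genes, with 1 point per library and the mean with SD beside the points. The 3 knockout libraries lie below the 3 control libraries in the first 3 panels and above them in the fourth.

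Each member was also tested after its counts had been summed with those of the pseudogenes matched to it, a comparison added after the pairs above were seen. Of 79 sums 26 were lower (17.2% of all genes in that fit) and 0 higher, and the median log2 fold change was -0.14. Of the 27 genes that were lower alone, 24 were lower as sums. The calls of Rpl34 (log2 fold change of the sum -0.0035, edgeR, adjusted p = 0.98), Rps13 (-0.16, adjusted p = 0.14) and Rps15a (-0.15, adjusted p = 0.057) were lost, Rpl3 was lower by less (-0.23, adjusted p = 0.035), Rpl4 was lower as a sum only, and so was Rpl24, which could not be tested alone. Of the tested members 73 of 78 kept their share of the sum within 3 percentage points between the genotypes. The 5 that moved by more than 5 points were the 3 above, Rpl13a (73.0% and 84.4%) and Rpl35 (96.7% and 90.2%), both counted at low levels. Of 124 matched pseudogenes with enough counts for a test, 10 were lower (8.06%, against 17.1% of all genes) and 5 higher (4.03%, against 18.2%), and the 5 were Rpl34-ps1, Rpl3-ps1, Rpl3-ps2, Rps13-ps1 and AC147512.2, a copy of Rpl17 at 0.485 and 1.19 CPM. Rpl4, Rpl13a, Rpl24, Rpl35 and these pseudogenes were picked out after their values were seen.

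**Figure D4:**
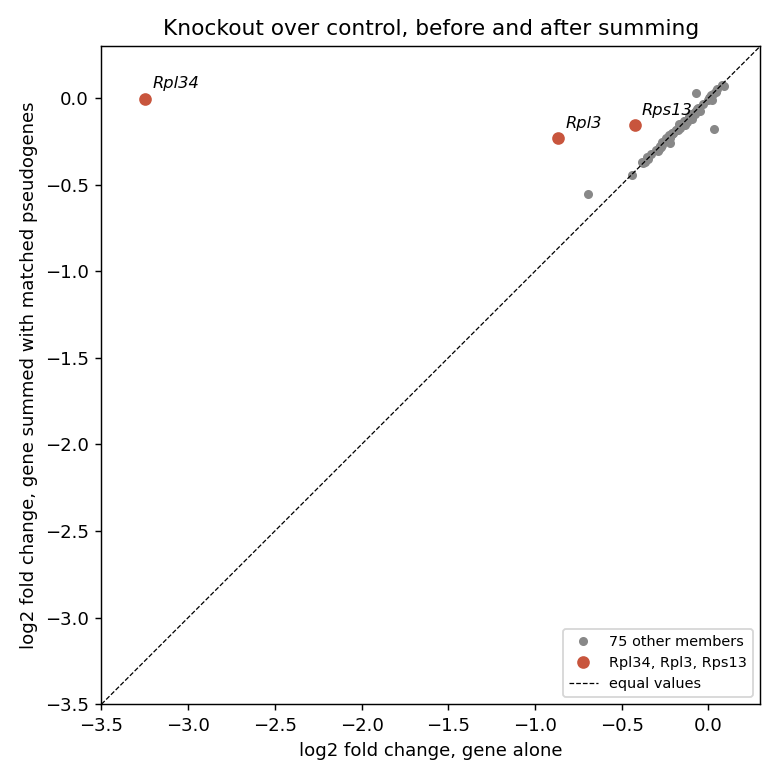
Log2 fold change of each member alone (horizontal axis) against that of the member summed with its matched pseudogenes (vertical axis, the same units), for the 78 members tested alone. Points on the dashed line did not move. Rpl34 moves from -3.25 to -0.0035, Rpl3 from -0.87 to -0.23 and Rps13 from -0.42 to -0.16.

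In the large subunit the next lower gene after these was Rpl23a, whose protein sits at the exit of the peptide tunnel. It was counted at 9.37, 8.56 and 8.49 CPM in Pa1F/F and 4.78, 6.05 and 5.52 CPM in Amh-pa1-/- (log2 fold change -0.69 ± 0.14, edgeR, adjusted p = 0.011), with no overlap between the groups. These few counts held 9.23% and 8.37% of its sum with pseudogenes, which was lower as well (log2 fold change -0.55, edgeR, adjusted p = 0.00067). In the list of proteins around the tunnel exit, 4 of 7 genes were lower (17.1% of all genes) and 0 higher (18.2%), and the others were Rpl19 (-0.35 ± 0.06), Rpl26 (-0.27 ± 0.04) and Rpl17 (-0.24 ± 0.06).

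Of the P stalk genes and Rpl12, 1 of 4 was lower, against 17.1% of all genes. Rplp0, the stalk's base, was the highest member by CPM at 894, 980 and 895 CPM in Pa1F/F and fell to 713, 691 and 635 CPM in Amh-pa1-/-. Every Amh-pa1-/- library lay well below every Pa1F/F library (log2 fold change -0.44 ± 0.08, edgeR, adjusted p = 0.0054). Rplp1 and Rplp2, which pair on that base, did not pass the test. Rplp1 was at 257, 286 and 258 CPM against 250, 242 and 256 CPM (-0.10 ± 0.06, adjusted p = 0.27), and Rplp2 was at 125, 142 and 122 CPM against 125, 123 and 132 CPM (-0.03 ± 0.07, adjusted p = 0.75). Rpl12, which binds rRNA beside the stalk, was at -0.10 ± 0.07 (adjusted p = 0.29). Whether Rplp0 differed from its partners in its change was not tested.

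Rpl5 and Rpl11 bind the 5S rRNA and, outside the ribosome, Mdm2. Rpl5 was lower, from 318, 350 and 331 CPM to 279, 285 and 293 CPM (-0.22 ± 0.06, edgeR, adjusted p = 0.024). Rpl11 went from 206, 212 and 199 CPM to 192, 182 and 187 CPM and did not pass the test (-0.14 ± 0.05, adjusted p = 0.075), although its groups did not overlap either. Of the 19 genes listed for Diamond-Blackfan anaemia, a congenital red cell disorder of ribosomal protein loss, 7 were lower (17.1% of all genes) and 0 higher (18.2%), with a median of -0.14 like that of the whole family.

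In the small subunit Rps14 and Rps29 followed Rps13. Rps14, a protein of the platform, was at 238, 253 and 232 CPM in Pa1F/F and at 185, 169 and 203 CPM in Amh-pa1-/- (-0.38 ± 0.08, edgeR, adjusted p = 0.011). Rps29, a zinc-binding protein of the head, was at 101, 104 and 92.7 CPM and at 74.7, 71.5 and 83.7 CPM (-0.37 ± 0.08, adjusted p = 0.012). Neither gene had overlapping groups. Among 14 genes of the head of the small subunit, 5 were lower (17.1% of all genes) and 0 higher (18.2%), with a median of -0.14, close to the 34.6% lower and the median of the whole family, and besides Rps29 they were Rps28 (-0.33 ± 0.06), Rps3 (-0.30 ± 0.06), Rps27a (-0.28 ± 0.05) and Rps19 (-0.28 ± 0.05). Rps6, the substrate of the S6 kinases, was lower by a small amount, at 360, 361 and 344 CPM against 316, 300 and 309 CPM (-0.20 ± 0.05, adjusted p = 0.024).

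Members with a positive fold change did not pass the test. The highest in the small subunit was Rps2, at 551, 593 and 560 CPM in Pa1F/F and 603, 586 and 608 CPM in Amh-pa1-/- (0.08 ± 0.06, edgeR, adjusted p = 0.35), with overlapping groups. Rpl41, the shortest of the proteins, was at 332, 346 and 337 CPM and 352, 336 and 357 CPM (0.04 ± 0.05, adjusted p = 0.58). The median SE over the members was 0.063, and the smallest difference that passed the test was that of Rps15a, at 10.9% lower.

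Levels between genes were compared as CPM per kilobase of coding sequence. A total of 57 of 82 genes stood above 100 CPM in the Pa1F/F mean. Per length, the highest large subunit genes in Pa1F/F were Rpl41 at 4334, Rplp0 at 967 and Rpl27a at 807 CPM per kilobase, and the highest small subunit genes were Rps24 at 733, Rps26 at 688 and Rps2 at 644. The value of Rpl41 rests on its very short reading frame, since counts on the rest of the transcript were divided by it too. Low levels in the small subunit were those of Rps27 at 141 and Rps10 at 188 CPM per kilobase. At the bottom of the large subunit stood the paralogs Rpl10l at 0.032, Rpl3l at 0.13 and Rpl39l at 0.28 CPM per kilobase, which are known from testis germ cells or, for Rpl3l, from muscle.

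Some members had few counts although they encode common ribosomal proteins. Rpl24, next to the subunit interface, had 2, 7 and 7 counts in Pa1F/F and 4, 4 and 2 counts in Amh-pa1-/- and was too low for a test. Of its 50-base stretches 99.3% were present in pseudogenes, and the gene held 10.2% of its sum with them in Pa1F/F. Rpl13a at 3.18 CPM, Rpl23a at 8.80 CPM and Rpl35 at 12.3 CPM in the Pa1F/F mean were low as well. How the counting treated reads that match several places is not given in the sources used here, so these levels are counts assigned to a gene and not amounts of its mRNA. In addition 13 members overlapped a gene on the opposite strand that had at least 60 counts in all, and the strand setting of the counting is not stated.

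**Figure D5:**
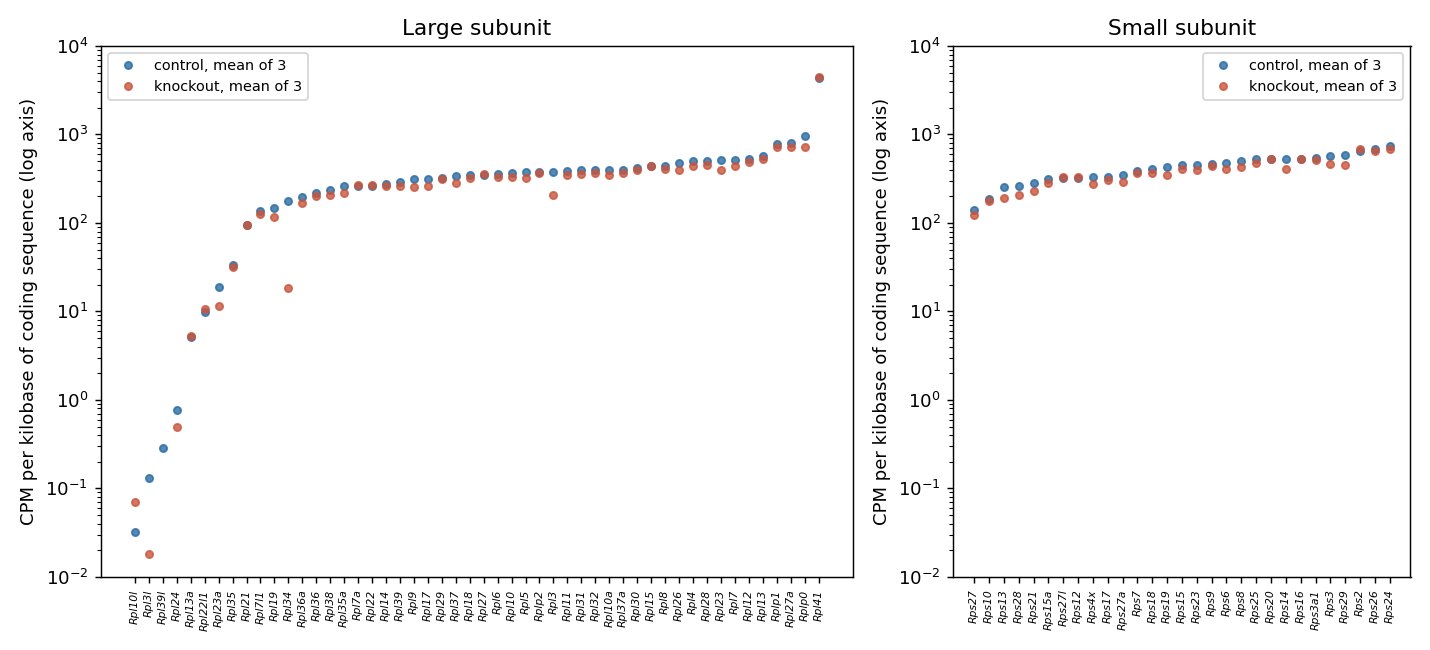
CPM per kilobase of coding sequence (vertical log axis) of 79 members in order of its control mean, with blue points for the mean of 3 control and red points for the mean of 3 knockout libraries. Means of 0 are not drawn (Rpl39l in the knockout). Most members lie within a narrow band, with Rpl41 above at 4334 and Rpl24 and 3 paralogs below 1.

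Paralogs that can replace a common ribosomal protein were compared by their share of the pair per coding length. Rpl7l1, a paralog of Rpl7 in ribosome assembly, held 20.7%, 20.8% and 20.7% in Pa1F/F and 22.0%, 22.4% and 21.4% in Amh-pa1-/-, with no overlap (exact two-sided permutation p = 0.1, the smallest possible). Rpl7 itself was lower (-0.21 ± 0.06, edgeR, adjusted p = 0.039) and Rpl7l1 did not pass the test (-0.11 ± 0.06, adjusted p = 0.16). Rps27l held 68.9%, 67.1% and 72.4% of its pair with Rps27 in Pa1F/F and 76.8%, 75.1% and 64.4% in Amh-pa1-/- (exact two-sided permutation p = 0.7). Amh-pa1-/- replicate 3 stood below the other libraries there. Rps27l, which is also a p53 target, was at 78.8, 84.0 and 81.7 CPM against 99.3, 93.2 and 60.8 CPM, and it was higher only without that library or in the close pairs alone (log2 fold change 0.26, edgeR, adjusted p = 0.00019). Rpl22l1 held 3.65 ± 0.25% of its pair with Rpl22 in Pa1F/F and 3.74 ± 1.64% in Amh-pa1-/- (SD, n = 3, exact two-sided permutation p = 1.0). Rpl3l, Rpl10l and Rpl39l had at most 4 counts in any library, and no difference was detectable at this depth. The 6 shares were compared without adjustment, and none could pass 0.05 in a design of 3 against 3. Rps4x, the X-linked copy of the small subunit protein S4, was lower (-0.28 ± 0.07, edgeR, adjusted p = 0.020), while Rps4l was higher at 69.2 and 82.3 CPM (0.25 ± 0.07, adjusted p = 0.030). Rps4l is listed in the table as a pseudogene but in GENCODE vM39 as protein-coding, and it was not among the matched pseudogenes. Rpl36a was lower (-0.23 ± 0.07, adjusted p = 0.041), and its copy Rpl36al was near the floor at 0.428 to 0.924 CPM in Pa1F/F.

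TOP motifs were searched in RefSeq promoters of GRCm38.p6, from 250 bases before to 50 bases after each annotated start, on the transcribed strand only. The motif was a C followed by at least 4 bases that are each C or T. Of the 82 genes 62 had a promoter in that table, and 13 (21.0%) had the motif at the exact annotated start, against 3.01% of 27025 genes. Within 5 bases of the start 29 members (46.8%) and 21.2% of genes had it. The called members with the motif exactly at the start, from 10 bases before it to 20 bases into the transcript, are shown as examples of its form, with the motif in capitals. The windows are at chr4:86857348-86857377 (minus strand) for Rps6, chr16:33056472-33056501 (plus) for Rpl35a, chr7:118116128-118116157 (minus) for Rps15a and chr2:180257369-180257398 (plus) for Rps21.
Rps6: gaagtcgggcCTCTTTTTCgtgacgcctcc
Rpl35a: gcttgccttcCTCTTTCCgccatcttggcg
Rps15a: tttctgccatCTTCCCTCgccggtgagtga
Rps21: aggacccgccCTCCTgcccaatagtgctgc

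Of the 13 with the motif at the start 4 were lower (17.1% of all genes), with a median log2 fold change of -0.17 and a range of -0.29 to 0.01. Of the 29 tested genes with the motif within 5 bases, which include these 13, 6 were lower, with a median of -0.10. Of the 29 matched and tested genes without a motif within 5 bases 12 were lower, with a median of -0.14. Of the 20 tested genes without a RefSeq promoter 9 were lower, with a median of -0.13. Annotated starts may be off by some bases. Of 21 other genes listed as TOP mRNAs, 6 were lower (28.6%, against 17.1% of all genes) and 2 higher (9.52%, against 18.2%), with a median of -0.10. This list overlaps with the translation factors below and with ribosomal proteins that the symbol rule misses, so it is not separate from them. Tpt1, the translationally controlled tumour protein, was lower (-0.48 ± 0.08, edgeR, adjusted p = 0.0043), as were the initiation factors Eif3f (-0.53 ± 0.06, adjusted p = 0.0014) and Eif4b (-0.45 ± 0.05, adjusted p = 0.0010). The histone chaperone Nap1l1 was higher (0.64 ± 0.04, adjusted p = 0.00021).

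How the family differed from the other lists around the ribosome was not tested, and their counts stand against 17.1% of all genes lower and 18.2% higher. Of 77 mitochondrial ribosomal protein genes 5 were lower (6.49%) and 6 higher (7.79%), with a median of 0.05. They included Mrps24 (-0.78 ± 0.15, edgeR, adjusted p = 0.0081) and Mrpl52 (0.76 ± 0.09, adjusted p = 0.0016). Of 45 translation factors 6 were lower and 6 higher (13.3% each), with a median of 0.02, and the subunits of the exchange factor eIF2B went both ways, with Eif2b4 lower (-0.48 ± 0.12, adjusted p = 0.023) and Eif2b5 higher (0.41 ± 0.07, adjusted p = 0.0052). Of 79 ribosome biogenesis genes 8 were lower (10.1%) and 13 higher (16.5%), with a median of 0.06. Nhp2, a box H/ACA snoRNP protein, was lower (-0.70 ± 0.07, adjusted p = 0.00064) and Ltv1, a factor of small subunit export, was higher (0.62 ± 0.09, adjusted p = 0.0025).

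Against the same 17.1% and 18.2% of all genes, 3 of 19 RNA polymerase I genes were lower (15.8%) and 0 higher, with a median of 0.05, and the lower ones were the catalytic subunit Polr1a (-0.37 ± 0.05, edgeR, adjusted p = 0.0022), Polr1c (-0.27 ± 0.08, adjusted p = 0.041) and Cd3eap (-0.41 ± 0.08, adjusted p = 0.010). Of 13 snoRNA host genes 3 were lower (23.1%) and 0 higher, with a median of -0.22. Gas5, a TOP transcript with no long reading frame, was at 25.8 ± 1.7 CPM in Pa1F/F and 4.41 ± 1.3 CPM in Amh-pa1-/- (SD, n = 3, log2 fold change -2.54 ± 0.21, edgeR, adjusted p = 0.00036). Among 33 genes of mTORC1 and of other regulators of TOP mRNAs 9 were lower (27.3%) and 2 higher (6.06%), with a median of -0.03. Mycn, a driver of ribosomal protein transcription, was lower (-2.16 ± 0.20, adjusted p = 0.00057), as were the mTOR inhibitor Deptor (-1.69 ± 0.12, adjusted p = 0.00025), Sesn1 (-0.78 ± 0.12, adjusted p = 0.0032) and Akt1s1 (-0.67 ± 0.06, adjusted p = 0.00061).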

How the data were processed

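RNA-seq of 6 Sertoli cell libraries was used. Per the study's methods and the submitters' processing notes, the authors aligned reads with HISAT2 2.1.0 to GRCm38, counted them per gene with HTSeq 0.6.0 and deposited raw counts. The strand setting and the treatment of reads with several matches are not given in the sources used here. The table also holds the authors' own fold changes and p-values, which were not used.

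Counts were tested in R 4.3.3 with edgeR 4.0.16: filterByExpr (minimum count 10, minimum total 15), TMM, the quasi-likelihood F-test without covariates, and Benjamini-Hochberg adjustment over 14919 genes, with calls at an adjusted p under 0.05. CPM are counts divided by the TMM-scaled library size, times 1000000. A count of 3, the floor, equals 0.185 to 0.227 CPM, and covers counting error only. Single values were compared with exact permutation tests (scipy 1.17.1). Pseudogene transcripts of GENCODE vM39 were matched by BLAST+ 2.17.0 (at least 80% identity over at least 50% of the coding length, best match kept), without using that build's coordinates. The edgeR fit was tested on simulated counts, where small changes were seldom called and false calls exceeded the nominal rate. These counts were drawn with the spread estimated per gene, independently for each library and so without close pairs. How the fit behaves on libraries with close pairs was not tested.

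The members and lists were chosen with earlier results of these data known. Named are members past both thresholds, the lowest and highest called members overall and per subunit, paralog pairs, the P stalk, Rpl5, Rpl11, Rps6, the highest and lowest levels per length, ribosomal proteins outside the symbol rule, and up to 5 called genes of each related list. A few genes that this rule names are not reported here by name, nor drawn where points are labelled, but stay in the counts. Alternatives were DESeq2 1.42.0 size factors and Wald test, library size only, TMM without the members, limma-voom (limma 3.58.1), other count filters, the fold threshold, a replicate block, a length offset, each library left out, close pairs summed or alone, and sums with pseudogenes. Close pairs alone, pseudogene sums and the set of libraries as a term were added after seeing the data. Replicate numbers do not pair the libraries: correlations of the deviations from the group means were 0.11, -0.16 and -0.18.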

Additional observations from a re-analysis of the deposited data

How the results depend on the processing

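The counts of lower genes are given as family, large and small subunit, against 27, 15 and 12. Without the filter on low counts the family had 17, all among the 27, and the large subunit 9 (8.53% of all genes lower). With the replicate block they were 15, 8 and 7 (12.6% of all genes), although the replicate numbers do not pair the libraries. With the fold threshold they were 1, 1 and 0. With the close pairs summed they were 2, 2 and 0 (4.22% of all genes). With the close pairs alone 41 were lower, 25 of them in the large subunit (27.3% of all genes). In that fit 2 small subunit genes were higher, Rps2 and Rps27l, against 28% of all genes. Leaving out 1 library gave 14 to 34, 8 to 20 and 6 to 14 lower (11.1% to 21.2% of all genes). It gave 0 to 1 higher (11.5% to 21.9% of all genes), the 1 being Rps27l without Amh-pa1-/- replicate 3. The cause of these shifts was not tested. With the set of libraries as a term they were 37, 21 and 16. All other settings gave 24 to 28 lower (13.7% to 17.5% of all genes) and 0 higher (14.7% to 18.3% of all genes). In each of them 24 to 27 of the 27 genes were lower. The median log2 fold change lay between -0.16 and -0.09 in every setting, and the difference in share of library counts between -0.20 and -0.14 percentage points.

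Fold changes near 0 changed sign: Rpl22l1 was at -0.032 with limma-voom, -0.0048 with the replicate block, -0.36 without Amh-pa1-/- replicate 3 (-0.36 to 0.38 over the left-out libraries) and -0.39 in the close pairs alone. Rplp2 was at 0.038 without Pa1F/F replicate 2 (range -0.078 to 0.038), 0.0042 without Amh-pa1-/- replicate 2 and 0.0043 in the close pairs alone. Rps27l was at -0.079 and -0.01 without Amh-pa1-/- replicates 1 and 2 (range -0.079 to 0.242) and at -0.041 with the close pairs summed. None of these 10 values was called. With the fold threshold the 12 lower genes of the naming rule other than Rpl34 are no longer called, with the close pairs summed 11, and with the replicate block 5. At this depth Rpl24, Rpl3l, Rpl10l and Rpl39l were too low for a test.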
